A study of Mus musculus with 32 samples.

Results

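Gene expression in the synovium of MMS D3 mice was compared with that of Control mice in 6 RNA-seq libraries, 3 of each, out of the 32 samples of the series. The libraries were chosen by their labels, and every gene of the deposited synovium table, 1178 in all, was tested. Both groups are C57BL/6 mice, and the labels name no other allele, agent, age or sex. MMS is the submitters' name for their model and is not spelled out in the labels, which give neither how it was induced nor what the Control mice received, and the number after D carries no stated unit. Synovium of MMS D7 (n = 3) was used to ask what changed next, and MMS D14 (n = 3) is given as levels.

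The synovium is the tissue that lines a joint. Its surface layer of lining fibroblasts and macrophages makes and clears the joint fluid, and the sublining below holds looser connective tissue, vessels, nerves and, in many places, fat. In joint disease synovial fibroblasts are known to divide and to lay down collagen that lysyl oxidases cross-link and metalloproteinases remodel, while the fat cells store triglyceride and secrete hormones such as adiponectin and leptin.

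Levels are given as FPKM, fragments scaled to transcript length and to the mapped fragments of the library, for replicates 1, 2 and 3 in that order. A log2 change is the difference in mean log2(FPKM + 1) with its standard error from limma, and it understates the change of genes with low FPKM. "Rose" and "fell" are used of an adjusted p under 0.05 over all 1178 genes. The table holds selected genes by a rule that is not stated, and 1155 of them differed at least 1.5-fold between the MMS D14 and Control means, against 585 for MMS D3, so counts describe these genes and not the transcriptome. The listed FPKM summed to 79490 to 97658 in the MMS D3 libraries and 114194 to 132996 in the Control libraries, which is not a depth, and depth is unknown. Replicate 3 of MMS D3 and of Control belong to 5 libraries of the synovium set with low values of 2 predicted genes, 1.71 to 3.36 FPKM of Gm2023 against 12.59 to 56.19 in the other 13. Lining fibroblast markers (4 of 6), adipocyte markers (4 of 4) and bone markers (3 of 3) were among the listed genes, and none of 17 markers of macrophages, neutrophils, lymphocytes and cartilage was. The p-values rest on the spread within the 6 groups of all 18 synovium samples, not of the 6 compared libraries alone. Whether each replicate is its own animal is not in the labels, so that spread may be technical.

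In MMS D3 synovium 659 genes were called (55.9% of those tested): 192 rose (16.3%), 467 fell (39.6%) and the other 519 did not pass. All MMS D3 samples lay above all Control samples in 194 genes (16.5%) and below them in 500 (42.4%). The median log2 change of all genes was -0.34, or -0.22 after each sample was centred on its median, where 220 rose and 360 fell. The lists of cell cycle genes, fibrillar collagens, collagen cross-linking and matrix glycoproteins held mostly rises, and the lists of lipid synthesis, mitochondrial, interferon response and lining genes held mostly falls. For the mitochondrial list this depended on the libraries and settings, as given below.

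**Figure D1:**
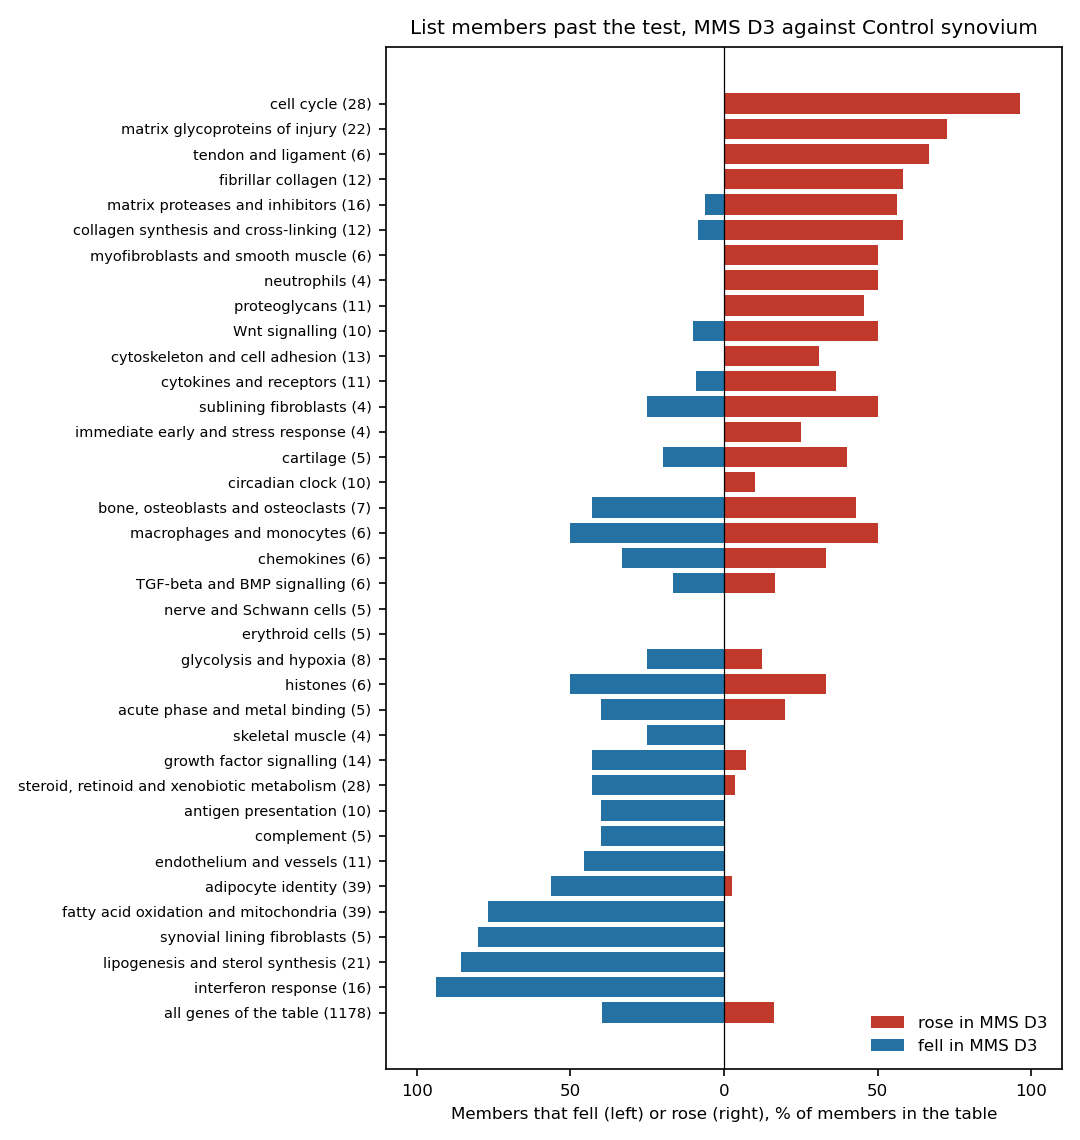
Share of the members of each gene list that rose (right, red) or fell (left, blue) in MMS D3 against Control synovium, in percent of the members present in the table, whose number stands in brackets. The bottom bar gives the same for all 1178 genes, 16.3% risen and 39.6% fallen. Cell cycle genes rose in 27 of 28 cases, and interferon response genes fell in 15 of 16.

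The 12 rises with the smallest adjusted p, a log2 change of at least 1 and no overlap between groups had adjusted p of 1.18e-09 to 8.19e-06. They comprise secreted and cell surface matrix proteins, transporters, receptors, a chemokine and a transcription factor. Wisp2, annotated as Ccn5 (chr2:163820861-163833146, GRCm38), a secreted CCN-family protein of fibroblasts, had 224, 202 and 162 FPKM in MMS D3 and 17.2, 21.6 and 13.3 FPKM in Control, a log2 change of 3.44 ± 0.18. Lox (chr18:52516067-52529867), the lysyl oxidase that cross-links collagen and elastin, had 189.5, 137 and 184 FPKM in MMS D3 and 15.9, 15.99 and 19.6 FPKM in Control (3.23 ± 0.19). In both genes every MMS D3 library lay well above every Control library.

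Among the other 10, Runx1, a transcription factor of blood and mesenchymal cells, had 28.04, 14.2 and 16.5 FPKM in MMS D3 and 3.11, 3.84 and 3.31 FPKM in Control (2.17 ± 0.21). Gfra1, the co-receptor for the growth factor GDNF, had 7.84, 6.99 and 7.84 FPKM in MMS D3 and 1.81, 1.98 and 2.19 FPKM in Control (1.52 ± 0.13). The groups do not overlap in either gene, and replicate 1 was the highest MMS D3 library for Runx1 while the Gfra1 values were close together. Slc39a14, which carries zinc and iron into cells, had 56.3, 23.2 and 42.7 FPKM in MMS D3 and 5.55, 6.11 and 6.45 FPKM in Control (2.48 ± 0.29). Emb, an adhesion protein and chaperone of lactate transporters (log2 change 1.9), Fkbp11, a prolyl isomerase of the secretory pathway (2.37), Sdc1, the heparan sulfate proteoglycan syndecan 1 (1.51), Cilp (2.12), Nt5dc2 (3.72) and Ccl8 (3.42) were also among the 12.

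None of these 12 genes passed the test between MMS D7 and MMS D3, where 358 of 1178 genes were called (30.4%), 142 of them higher (12.1%) and 216 lower (18.3%), and their log2 changes from MMS D3 to MMS D7 lay between -0.13 and 0.63. Lox, for example, averaged 17.2 ± 2.14 FPKM in Control, 170.2 ± 28.6 in MMS D3, 157 ± 39.6 in MMS D7 and 152 ± 14.5 in MMS D14 (SD, n = 3 each). A miss at the threshold does not show that the levels were equal.

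The 12 falls chosen in the same way had adjusted p of 1.37e-07 to 6.82e-06. Clic5 (chr17:44188584-44280172), a chloride intracellular channel family protein used as a marker of lining fibroblasts, had 22.7, 20.5 and 18.9 FPKM in MMS D3 and 132, 135 and 102 FPKM in Control (log2 change -2.51 ± 0.20). Pon1, which encodes the esterase paraoxonase 1, had 3.93, 8.7 and 4.37 FPKM in MMS D3 and 50.1, 45.7 and 42.99 FPKM in Control (-2.89 ± 0.32). Every MMS D3 library lay far below every Control library in both. Pkp1, a desmosome plaque protein, had 2.12, 1.74 and 1.54 FPKM in MMS D3 and 7.51, 7.62 and 7.13 FPKM in Control (-1.59 ± 0.15). Aldh1a3, an enzyme that makes retinoic acid, had 17.2, 16.4 and 12.2 FPKM in MMS D3 and 47.3, 57.6 and 55.8 FPKM in Control (-1.75 ± 0.17). Hist2h2aa1, a histone H2A gene with a near-identical copy, fell by more than any other of the 12 except Pon1, with 9.07, 17.4 and 18.6 FPKM in MMS D3 and 115, 101 and 70.7 FPKM in Control (-2.63 ± 0.24). Rbp4, the retinol carrier secreted by liver and fat (-2.1), Gpr1, a chemerin receptor (-1.95), Hbegf (-1.76), Lctl (-1.75), Tspan15 (-1.6), Arxes1 (-1.57) and Pamr1 (-1.44) were the other falls, and reads of Arxes1 and its close copy Arxes2 may not be separable.

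**Figure D2:**
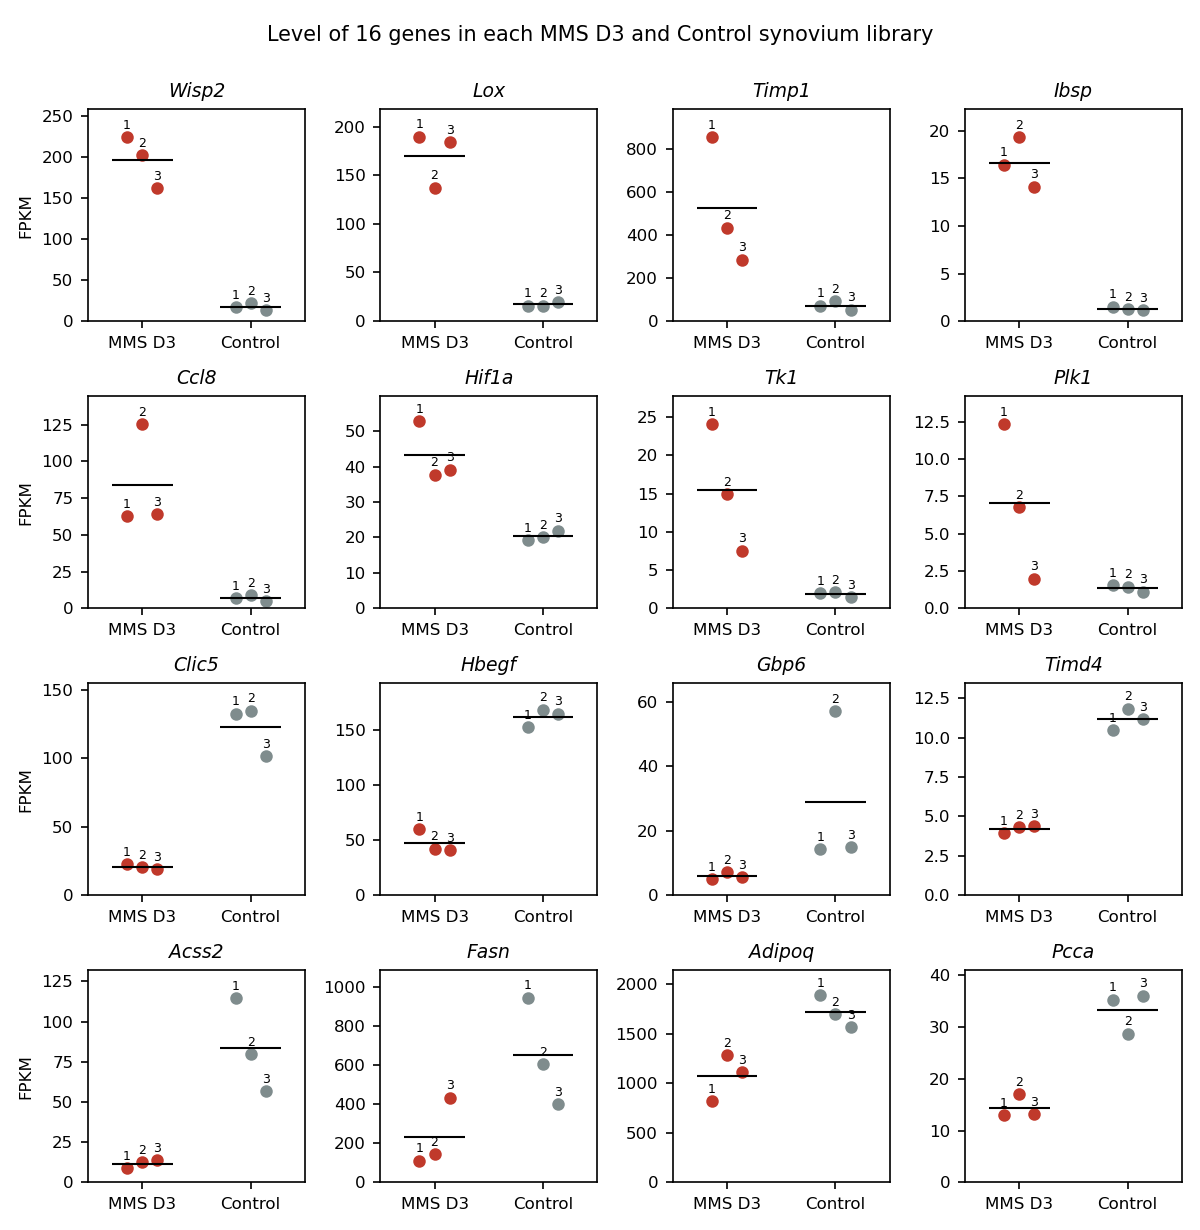
Level in FPKM (vertical axis, from 0) of 16 genes in the MMS D3 libraries (red, left) and the Control libraries (grey, right), with the replicate number above each point and the mean as a bar. Tk1 and Plk1 are highest in MMS D3 replicate 1 and lowest in replicate 3, Gbp6 is high in Control replicate 2, and in Fasn MMS D3 replicate 3 lies above Control replicate 3.

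Nearly all cell division genes that the table holds rose. The cell cycle list has 74 genes and only 28 are in the table, so the others were not seen. Over all genes tested 16.3% rose. The rule that selected the table is not stated, so the counts describe these 28 genes only. Of 28 members of the cell cycle list in the table, 27 rose and none fell, with a median log2 change of 1.40, against -0.34 over all genes, and in 24 all MMS D3 samples lay above all Control samples. The list spans DNA synthesis, chromosome condensation, the spindle and cytokinesis. Tk1 (chr11:117815526-117826092), the thymidine kinase of S phase, had 24.1, 14.9 and 7.52 FPKM in MMS D3 and 1.95, 2.08 and 1.48 FPKM in Control (log2 change 2.41 ± 0.34, adjusted p = 5.13e-05 by limma). Mcm2, a subunit of the replicative helicase, had 13.8, 8.0 and 4.31 FPKM in MMS D3 and 2.21, 3.14 and 2.24 FPKM in Control (1.35 ± 0.29). Plk1, the mitotic polo-like kinase, had 12.4, 6.78 and 1.99 FPKM in MMS D3 and 1.55, 1.44 and 1.11 FPKM in Control (1.52 ± 0.39). All 3 genes were lowest in MMS D3 replicate 3, and for Plk1 that library was only slightly above the highest Control value.

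The 7 DNA synthesis genes Tk1, Rrm1, Rrm2, Mcm2, Mcm5, Gins2 and Cdc45 all rose (log2 changes 0.92 to 2.41), with adjusted p of 5.13e-05 to 0.00286. So did 16 genes of chromosomes, spindle and division (0.69 to 1.93), among them Cdc20, which activates the anaphase-promoting complex, with 14.2, 9.89 and 2.34 FPKM in MMS D3 and 1.58, 1.44 and 1.47 FPKM in Control (1.72 ± 0.41). Cenpa, the centromeric histone, had 12.1, 8.73 and 7.21 FPKM in MMS D3 and 2.59, 2.33 and 3.2 FPKM in Control (1.46 ± 0.24). Over the whole list, MMS D3 replicate 1 was highest in 26 genes and replicate 3 lowest in 28. The median over members stood 1.98, 1.49 and 0.56 log2 units above the Control mean in MMS D3 replicates 1, 2 and 3, against -0.05 to 0.05 in the Control libraries. Without MMS D3 replicate 1, and likewise without replicate 2, 23 members rose. The calls that ended were those of Stmn1, Kif23, Ube2c and Hmgb2, the last also without Control replicate 3 (0.0791), with adjusted p of 0.0665 to 0.109 in those fits.

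Cell cycle promoters often carry the CHR element (TTTGAA) and the CCAAT box. In RefSeq promoters (GRCm38.p6, 250 bases before to 50 after the start, either strand), 24 of the 28 members could be matched. TTTGAA occurred in 16 of them (66.7%), against 15.1% of the 873 matched genes of the table and 20.2% of all 27025 genes with a promoter. CCAAT occurred in 19 (79.2%), against 46.2% and 41.1%. The stretches below show both motifs in capitals, on either strand, ahead of 3 members that rose. Their bases lie outside annotated exons of the same strand, and exons of the other strand were not checked. They lie at chr4:118437353-118437472, minus strand for Cdc20, chr6:125191702-125191821, minus strand for the condensin subunit gene Ncapd2 (1.12), and chr8:57511723-57511842, plus strand for the chromatin protein gene Hmgb2 (0.9, whose call ends as given above). A match is a sequence description and not a binding site.
Cdc20: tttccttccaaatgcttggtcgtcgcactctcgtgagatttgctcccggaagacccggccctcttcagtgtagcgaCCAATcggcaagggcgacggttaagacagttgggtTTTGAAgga
Ncapd2: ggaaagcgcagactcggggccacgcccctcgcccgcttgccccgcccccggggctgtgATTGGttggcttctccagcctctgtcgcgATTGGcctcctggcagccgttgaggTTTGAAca
Hmgb2: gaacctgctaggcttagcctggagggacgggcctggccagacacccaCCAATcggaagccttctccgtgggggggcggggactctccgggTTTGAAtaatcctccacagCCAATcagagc

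Part of the collagen list rose. Of 12 fibrillar and beaded-filament collagen genes, 7 rose (58.3%, against 16.3% of all genes tested) and none fell (median log2 change 0.51). Col5a2, a chain of type V collagen that sets fibril diameter, had 193, 179 and 127 FPKM in MMS D3 and 75.8, 73.96 and 81.4 FPKM in Control (1.08 ± 0.17, adjusted p = 0.000115 by limma). Col1a1, the main chain of type I collagen, had 1588, 1199 and 769 FPKM in MMS D3 and 625, 624 and 509.9 FPKM in Control (0.96 ± 0.27). Col3a1 had 1681, 1786 and 1335 FPKM in MMS D3 and 1099, 998 and 976 FPKM in Control (0.63 ± 0.17). In each of these the groups do not overlap, and replicate 3 was the lowest MMS D3 library. The type VI chains Col6a1 and Col6a2 did not pass, and Col6a1 had 285, 280.2 and 205 FPKM in MMS D3 and 280.1, 267 and 227 FPKM in Control, and the groups overlap. All 12 collagen genes were then higher in MMS D7 than in MMS D3 (median log2 change 1.19), with Col6a1 at 626, 589.5 and 659.5 FPKM in MMS D7 (log2 change from MMS D3 1.29 ± 0.19).

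Genes that modify and cross-link collagen rose in 7 of 12 members (58.3%, against 16.3% of all genes tested), and 1 fell (median log2 change 0.82). Besides Lox, its relative Loxl3 had 43.8, 25.3 and 20.1 FPKM in MMS D3 and 9.58, 10.03 and 7.1 FPKM in Control (1.57 ± 0.22). Fkbp10, a collagen chaperone, had 123, 95.6 and 73.6 FPKM in MMS D3 and 45.4, 51.4 and 36.1 FPKM in Control (1.1 ± 0.19). P4ha3, a subunit of prolyl 4-hydroxylase, rose (1.35) and was higher again in MMS D7 than in MMS D3 (1.86). The member that fell was Pcolce2, an enhancer of procollagen processing, with 53.3, 66.7 and 61.3 FPKM in MMS D3 and 92.7, 105 and 94.6 FPKM in Control (-0.68 ± 0.17). Loxl2, P4ha2 and Adamts14 did not pass in MMS D3 and were higher in MMS D7 than in MMS D3, and within the list the cross-linking enzymes Lox and Loxl3 did not pass between MMS D7 and MMS D3 (log2 changes from MMS D3 of -0.13 and 0.29), while Loxl2 did (1.35). Without MMS D3 replicate 1 Loxl3 too was higher in MMS D7 (adjusted p = 0.0177 by limma).

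Matrix glycoproteins of injury rose in 16 of 22 members (72.7%, against 16.3% of all genes tested) with no fall (median log2 change 1.12). Fbln2, the elastic fibre protein fibulin 2, had 223, 154 and 115 FPKM in MMS D3 and 53.6, 48.5 and 37.7 FPKM in Control (1.75 ± 0.21). Cthrc1, which injured and fibrotic tissue secretes, had 59.9, 42.2 and 13.7 FPKM in MMS D3 and 4.55, 7.05 and 7.12 FPKM in Control (2.24 ± 0.36), a wide spread in which replicate 3 was closest to Control. Mfap4, a microfibril-associated protein, had 41.3, 46.5 and 17.2 FPKM in MMS D3 and 8.02, 5.78 and 4.93 FPKM in Control (2.22 ± 0.39), with the same order of libraries at the low end. Tnc, which encodes tenascin C, had 27.1, 7.97 and 5.88 FPKM in MMS D3 and 2.19, 2.59 and 2.18 FPKM in Control (1.86 ± 0.36), so that replicate 1 stood well above the others. Ctgf and Cyr61, CCN-family relatives of Wisp2, did not rise: Ctgf had 470.3, 374 and 408 FPKM in MMS D3 and 484, 585 and 590.3 FPKM in Control (-0.41, adjusted p = 0.051 by limma, or 0.0494 with the replicate numbers as a block), each MMS D3 library below each Control library. Cyr61 had 139, 67.5 and 27.6 FPKM in MMS D3 and 26.4, 49.7 and 35.02 FPKM in Control, and the groups overlap.

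Proteoglycans rose in 5 of 11 members (45.5%, against 16.3% of all genes tested), and none fell. The median log2 change of 0.39 moved with the libraries, to 0.05 without MMS D3 replicate 1, where 4 rose and 1 fell, and 0.85 without MMS D3 replicate 3. It was 0.70, 0.19 and 0.13 without Control replicates 1, 2 and 3 in turn. Lum, the collagen-binding lumican, had 225, 354 and 218 FPKM in MMS D3 and 112, 111 and 111 FPKM in Control (1.21 ± 0.20). Tnfaip6, which links hyaluronan to other proteins in inflamed joints, had 50.9, 13.7 and 21.2 FPKM in MMS D3 and 3.65, 4.19 and 3.23 FPKM in Control (2.46 ± 0.64). Fmod, Aspn and Vcan did not pass, with Aspn, the small proteoglycan asporin, at 66.5, 79.8 and 37.3 FPKM in MMS D3 and 56.1, 52.1 and 58.5 FPKM in Control. The groups overlap for Aspn, while Lum and Tnfaip6 were higher in every MMS D3 library.

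Of 16 matrix proteases and inhibitors 9 rose (56.25%, against 16.3% of all genes tested) and 1 fell (median log2 change 0.54). The inhibitor Timp1 had 856, 434 and 286 FPKM in MMS D3 and 71.3, 93.3 and 52.8 FPKM in Control (2.73 ± 0.39). Mmp3, stromelysin 1, had 19.0, 19.3 and 32.0 FPKM in MMS D3 and 8.8, 5.99 and 4.96 FPKM in Control (1.68 ± 0.31). Mmp14, the membrane collagenase that activates pro-MMP2, had 101, 105 and 89.1 FPKM in MMS D3 and 53.8, 58.2 and 50.8 FPKM in Control (0.84 ± 0.21). Timp1 was highest in replicate 1, Mmp3 in replicate 3, and Mmp14 was even across the MMS D3 libraries. The inhibitor Timp3 did not pass, at 50.2, 70.7 and 84.1 FPKM in MMS D3 and 80.97, 78.8 and 117 FPKM in Control, and Timp4 did not pass either.

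Of 10 genes of Wnt signalling, 5 were called higher (50%) and 1 lower (10%), against 16.3% and 39.6% of all genes tested. Dkk3, a secreted dickkopf family protein, had 13.9, 19.9 and 15.2 FPKM in MMS D3 and 8.45, 6.82 and 7.64 FPKM in Control (0.99 ± 0.22). The secreted antagonist Sfrp4 fell, with 21.0, 53.2 and 23.7 FPKM in MMS D3 and 71.8, 68.95 and 47.7 FPKM in Control (-1.03 ± 0.27), and MMS D3 replicate 2 lay within the Control range. Without Control replicate 3 the count of rises was 3, without MMS D3 replicate 1 it was 2 and without MMS D3 replicate 2 it was 3, and in the fit of the 2 groups alone it was 2. Of 14 growth factor genes 6 fell, a share near the 39.6% of all genes tested, and 1 rose, a call that ended in the fit of the 2 groups alone and without any 1 of the Control libraries or MMS D3 replicate 2. Hbegf, an EGF-family ligand of the lining, had 59.9, 42.4 and 40.8 FPKM in MMS D3 and 153, 169 and 165 FPKM in Control (-1.76 ± 0.16). Vegfb, a relative of the vessel growth factor VEGF-A, had 50.2, 72.9 and 44.7 FPKM in MMS D3 and 119, 109 and 89.1 FPKM in Control (-0.93 ± 0.21). Fgf10, a fibroblast growth factor that acts on epithelium and fat precursors, had 3.15, 4.87 and 3.92 FPKM in MMS D3 and 6.55, 6.09 and 8.03 FPKM in Control (-0.67 ± 0.16). In none of these 3 do the groups overlap. In the list of TGF-beta and BMP signalling 1 of 6 rose and 1 fell (16.7% each, against 16.3% and 39.6% of all genes tested). No member fell after centring, in the fit of the 2 groups alone, without any 1 of the Control libraries, or without MMS D3 replicate 1 or 3.

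The few inflammatory genes that the table holds moved in both directions, and over all genes tested 16.3% rose and 39.6% fell. The table holds 6 of 42 chemokines of the list, of which 2 rose (33.3%) and 2 fell (33.3%). Ccl8, a ligand that draws monocytes and other leukocytes, had 62.8, 125 and 64.2 FPKM in MMS D3 and 6.69, 8.88 and 4.59 FPKM in Control (3.42 ± 0.33). Ccl24, eotaxin 2, had 9.23, 10.03 and 8.31 FPKM in MMS D3 and 19.8, 21.5 and 18.5 FPKM in Control (-1.04 ± 0.21). Ccl8 was highest in MMS D3 replicate 2, and Ccl24 was at about the same level in the MMS D3 libraries, below every Control library. Of 11 cytokines and receptors 4 rose and 1 fell. Il33, an alarmin stored in the nuclei of stromal cells, had 12.2, 11.5 and 9.18 FPKM in MMS D3 and 5.87, 5.86 and 4.11 FPKM in Control (0.94 ± 0.15). Socs3, a feedback inhibitor of cytokine receptors, had 72.8, 41.9 and 26.9 FPKM in MMS D3 and 15.8, 21.8 and 13.1 FPKM in Control (1.34 ± 0.30). The member that fell was Il34, a ligand of the macrophage growth factor receptor CSF1R, with 13.4, 17.4 and 10.8 FPKM in MMS D3 and 26.2, 29.8 and 23.7 FPKM in Control (-0.91 ± 0.18). Of 38 acute phase and metal-binding genes of the list 5 were in the table. Among these 5, Slc39a14 rose and Orm1, an acute phase glycoprotein also made in fat, fell to 17.3, 25.4 and 46.1 FPKM in MMS D3, against 191, 142 and 114 FPKM in Control (-2.37 ± 0.31). Trf, transferrin, fell too (-0.76), so the share that fell (40%) was near that of all genes tested.

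The table holds 6 of 42 macrophage and monocyte genes of the list. All 6 were called, 3 up and 3 down, against 55.9% called over all genes tested. Only 2 were called lower without Control replicate 1, without MMS D3 replicate 1 or without the 5 libraries with low Gm2023. How these 6 came to be selected is not stated. Lyve1, a hyaluronan receptor of lymph vessels and of resident tissue macrophages, had 56.1, 51.6 and 46.5 FPKM in MMS D3 and 110.2, 117 and 103 FPKM in Control (-1.09 ± 0.25). Timd4, a phosphatidylserine receptor of resident macrophages, had 3.93, 4.34 and 4.4 FPKM in MMS D3 and 10.5, 11.8 and 11.2 FPKM in Control (-1.22 ± 0.28). The replicates were tight, and every MMS D3 library was under every Control library. On the other side, Ms4a7, a membrane protein of monocytes and macrophages, had 22.9, 18.3 and 13.1 FPKM in MMS D3 and 7.19, 8.5 and 8.98 FPKM in Control (1.02 ± 0.19). Clec10a, a galactose-binding lectin of macrophages and dendritic cells, had 32.1, 45.9 and 38.4 FPKM in MMS D3 and 21.8, 21.3 and 21.2 FPKM in Control (0.81 ± 0.21), and Gpnmb, a glycoprotein of lipid-laden macrophages, rose as well (1.0). In bulk RNA, fewer cells of a type and less RNA per cell cannot be told apart, here and in what follows. Of 4 neutrophil list genes 2 rose (50%, against 16.3% of all genes tested), none fell and 2 did not pass. When Control replicate 3, or all 5 libraries with low Gm2023, were left out, 1 was called lower. Prtn3, the granule proteinase 3, had 34.1, 38.7 and 26.4 FPKM in MMS D3 and 11.4, 14.3 and 14.6 FPKM in Control (1.23 ± 0.24). Csf3r, the receptor for G-CSF, had 12.1, 5.02 and 5.58 FPKM in MMS D3 and 1.87, 1.78 and 2.34 FPKM in Control (1.43 ± 0.31). The groups do not overlap in either gene, and Csf3r was highest in MMS D3 replicate 1.

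Interferon response genes were lower. Of 16 members 15 fell (93.8%, against 39.6% of all genes tested) and none rose (median log2 change -0.94). In 15 members all MMS D3 samples lay below all Control samples, against 42.4% of all genes. Cxcl9, a T-cell chemokine induced by interferon gamma, had 3.73, 6.3 and 3.91 FPKM in MMS D3 and 12.7, 18.7 and 12.01 FPKM in Control (-1.46 ± 0.29). Gbp6, a guanylate-binding protein, had 5.01, 7.17 and 5.71 FPKM in MMS D3 and 14.3, 57.1 and 14.98 FPKM in Control (-1.81 ± 0.34). Igtp, an immunity-related GTPase, had 9.42, 12.3 and 10.8 FPKM in MMS D3 and 23.6, 122 and 20.8 FPKM in Control (-1.77 ± 0.43). Control replicate 2 was the highest Control library in 14 of the 16 genes, and the same library held the highest level of Myl1, a fast skeletal muscle myosin light chain, at 117 FPKM against 32.4 and 32.9 FPKM in Control replicates 1 and 3. Without Control replicate 2, 11 of 16 genes fell and the median log2 change was -0.67, and the log2 changes of Gbp6, Igtp and Irgm2 were -1.18, -0.97 and -0.56. The count was also 11 without MMS D3 replicate 1, the lowest MMS D3 library in all 16 genes, and in the fit of the 2 groups alone. The median log2 change was -0.85 and -0.94 in these 2 fits. The part of muscle RNA in Control replicate 2 was not tested. Psmb9, an immunoproteasome subunit, had 20.8, 26.2 and 22.4 FPKM in MMS D3 and 39.1, 57.8 and 38.9 FPKM in Control (-0.92 ± 0.18). Tgtp2 fell too (-1.61), with a near-identical copy that may share its reads.

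Interferon-induced promoters often carry a repeated GAAA element. In the same RefSeq promoters GAAANNGAAA occurred on either strand in 7 of 11 matched members (63.6%), against 4.12% of the matched genes of the table and 3.99% of all genes with a promoter. The STAT-type palindrome TTCNNNGAA occurred in 7 (63.6%), against 8.93% and 9.55%. Holders of the GAAA repeat were Gbp2, Gbp3, Gbp5, Gbp7, Igtp, Irgm2 and Tgtp2, and Irf1, Cxcl9, Psmb8 and Psmb9 lacked it. Related genes among the holders are not independent cases. The lines below show the GAAA repeat in capitals, on either strand, ahead of Igtp (chr11:58199436-58199555, plus strand), the guanylate-binding protein gene Gbp3 (chr3:142559906-142560025, plus strand, log2 change -0.84) and Irgm2 (chr11:58214857-58214976, plus strand, -1.06), an immunity-related GTPase whose stretch shares a long run with that of Igtp.
Igtp: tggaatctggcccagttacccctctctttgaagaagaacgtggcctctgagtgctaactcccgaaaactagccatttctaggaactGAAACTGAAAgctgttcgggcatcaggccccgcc
Gbp3: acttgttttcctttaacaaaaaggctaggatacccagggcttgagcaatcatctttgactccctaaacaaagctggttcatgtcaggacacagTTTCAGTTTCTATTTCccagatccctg
Irgm2: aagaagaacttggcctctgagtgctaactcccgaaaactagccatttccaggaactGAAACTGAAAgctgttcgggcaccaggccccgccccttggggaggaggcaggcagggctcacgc

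The shares of antigen presentation and complement genes that fell were near the 39.6% of all genes tested. Of 10 antigen presentation genes 4 fell, or 7 with the replicate block and 2 in the fit of the 2 groups alone, and the class I gene H2-Q10, which has close copies, had 31.6, 35.3 and 40.3 FPKM in MMS D3 and 90.2, 90.6 and 104 FPKM in Control (-1.39 ± 0.18). The class II genes and their chaperone Cd74 did not pass, with Cd74 at 603, 506 and 242 FPKM in MMS D3 and 692, 633 and 416 FPKM in Control. Of 5 complement genes 2 fell, among them Cfd, the complement factor D that fat cells secrete, at 7087, 10286 and 9973 FPKM in MMS D3 and 20231, 18036 and 12767 FPKM in Control (-0.89 ± 0.23). On the FPKM scale, which is per length, Cfd had the highest mean level of all listed genes in both groups.

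The lining list fell in 4 of 5 members (80%, against 39.6% of all genes tested, median log2 change -1.60). Beside Clic5 and Hbegf, Tspan15, a tetraspanin partner of the protease ADAM10, had 38.6, 29.7 and 34.5 FPKM in MMS D3 and 99.4, 118 and 101 FPKM in Control (-1.6 ± 0.18). Sema5a, a semaphorin guidance protein, had 6.01, 6.41 and 6.03 FPKM in MMS D3 and 8.31, 10.3 and 10.8 FPKM in Control (-0.59 ± 0.18). Htra4 did not pass, at 247, 328 and 470.1 FPKM in MMS D3 and 215, 246 and 401 FPKM in Control, where replicate 3 was the highest library in each group. The summed FPKM of the list was 374 to 570.4 in MMS D3 and 608 to 779.5 in Control.

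Genes of other connective tissues of the joint were mixed, and over all genes tested 16.3% rose and 39.6% fell. Of 6 tendon and ligament genes 4 rose, and Scx, the tendon transcription factor scleraxis, had 8.44, 5.46 and 3.32 FPKM in MMS D3 and 1.01, 1.61 and 1.0 FPKM in Control (1.55 ± 0.25). Thbs4, a thrombospondin of tendon and muscle, had 48.1, 55.2 and 38.8 FPKM in MMS D3 and 12.6, 15.8 and 19.4 FPKM in Control (1.52 ± 0.24). Of 7 bone list genes 3 rose and 3 fell (42.9% each), and the share that fell was near that of all genes tested. Ibsp (chr5:104299171-104311469), the bone sialoprotein of mineralising matrix, had 16.4, 19.3 and 14.1 FPKM in MMS D3 and 1.53, 1.24 and 1.12 FPKM in Control (2.93 ± 0.42), and Ctsk, a cathepsin of osteoclasts and fibroblasts, rose as well (1.29). Acp5, the acid phosphatase of osteoclasts and some macrophages, had 175, 233 and 249 FPKM in MMS D3 and 435, 379.9 and 294 FPKM in Control (-0.75 ± 0.18). Bglap2, an osteocalcin gene with a near-identical copy Bglap, had 17.8, 26.8 and 20.1 FPKM in MMS D3 and 39.9, 53.1 and 53.2 FPKM in Control (-1.15 ± 0.30). In each of these 4 genes the groups do not overlap. Of 5 cartilage list genes Cilp and Comp, both also in the tendon and ligament list, rose and Sox6 fell (-0.53). The call for Comp (0.74) ended without MMS D3 replicate 2 (adjusted p = 0.0515 by limma). Of 6 myofibroblast and smooth muscle genes 3 rose and none fell, including Actn1, the actin cross-linker alpha-actinin 1 (0.98). In the sublining fibroblast list 2 of 4 rose and Gsn, gelsolin, fell (-0.73), and 1 rose without Control replicate 3, without MMS D3 replicate 1 or 2, and in the fit of the 2 groups alone.

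Genes of fat tissue were lower. Of 39 adipocyte list members 22 fell (56.4%) and 1 rose, with a median log2 change of -0.64. Over all genes tested 39.6% fell and the median was -0.34. The summed FPKM of the list was 21420.0 to 35430.0 in MMS D3 against 42910.0 to 51290.0 in Control. That of all listed genes was lower too, at 79490 to 97658 in MMS D3 against 114194 to 132996 in Control. Adipoq, which encodes adiponectin, had 818, 1279 and 1111 FPKM in MMS D3 and 1888, 1693 and 1564 FPKM in Control (-0.7 ± 0.18). Lep, leptin, had 16.5, 21.5 and 18.5 FPKM in MMS D3 and 43.2, 39.1 and 54.0 FPKM in Control (-1.22 ± 0.34). Adrb3, the beta-3 adrenergic receptor that starts lipolysis in mouse fat, had 15.97, 24.03 and 8.21 FPKM in MMS D3 and 89.9, 79.4 and 66.8 FPKM in Control (-2.33 ± 0.52). None of these overlap. Lipe, hormone-sensitive lipase, did not pass, at 409, 545 and 516 FPKM in MMS D3 and 614, 545 and 537 FPKM in Control, nor did Pparg, the master regulator of fat cells, at 72.2, 109 and 94.5 FPKM in MMS D3 and 122, 102 and 142 FPKM in Control. The 4 adipocyte markers Adipoq, Plin1, Cidec and Lep all fell, but the call for Plin1 (-0.51) ended without Control replicate 1 or 2 or MMS D3 replicate 1 or 3, with adjusted p of 0.0627 to 0.118, in the fit of both groups alone (0.0756) and after centring (0.0595).

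Lipid synthesis genes were lower too. Of 21 genes 18 fell (85.7%, against 39.6% of all genes tested) and none rose (median log2 change -1.04). Acss2 (chr2:155517948-155585724), which makes acetyl-CoA from acetate, had 8.79, 12.6 and 13.8 FPKM in MMS D3 and 115, 79.7 and 56.7 FPKM in Control (-2.7 ± 0.32). Insig1, the sterol sensor that holds back SREBP, had 34.5, 47.4 and 47.6 FPKM in MMS D3 and 204, 151 and 83.6 FPKM in Control (-1.66 ± 0.28). Fasn, fatty acid synthase, had 112, 145 and 433 FPKM in MMS D3 and 944, 606 and 400.0 FPKM in Control (-1.67 ± 0.47). Acss2 and Insig1 do not overlap between groups, while for Fasn MMS D3 replicate 3 exceeded Control replicate 3. Its log2 change was -2.56 when the 5 libraries with low Gm2023 were left out. Me1, malic enzyme, which supplies NADPH (-1.74), Thrsp, a lipogenic regulator (-1.68), Pnpla3 (-1.81), the elongase Elovl6 (-1.5) and Acaca, acetyl-CoA carboxylase (-1.21), fell in the same direction. Scd1, the stearoyl-CoA desaturase, did not pass, at 1213, 1267 and 2754 FPKM in MMS D3 and 2537, 2326 and 3089.9 FPKM in Control. The list median stood -1.56, -1.10 and -0.50 log2 units from the Control mean in MMS D3 replicates 1, 2 and 3, against 0.39, -0.01 and -0.45 in the Control libraries, so MMS D3 replicate 3 and Control replicate 3 nearly met. The lower adipocyte markers moved with this list and the next, and their part in it was not tested.

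Fatty acid oxidation and mitochondrial genes fell in 30 of 39 members (76.9%, against 39.6% of all genes tested) with none risen (median log2 change -0.57). Pcca, a propionyl-CoA carboxylase subunit, had 12.9, 17.1 and 13.1 FPKM in MMS D3 and 35.3, 28.7 and 36.1 FPKM in Control (-1.16 ± 0.16). Mccc1, which acts in leucine breakdown, had 13.3, 21.2 and 22.9 FPKM in MMS D3 and 46.7, 39.6 and 46.1 FPKM in Control (-1.2 ± 0.18). Hadhb, of the mitochondrial trifunctional protein, had 51.5, 60.05 and 77.6 FPKM in MMS D3 and 122, 110.5 and 117 FPKM in Control (-0.9 ± 0.16). All MMS D3 libraries were below all Control libraries in these. The count varied with the libraries and settings. It was 12 without MMS D3 replicate 1, 17 without Control replicate 1, 13 in a fit of the 2 groups alone and 19 after centring. Of all 1178 genes, 317, 370, 317 and 360 fell in the same settings, in that order. Without MMS D3 replicate 1 and in the fit of the 2 groups alone, the share of the list that fell was thus near that of all genes. It stayed above that of all genes without Control replicate 1 and after centring. In the list of steroid, retinoid and xenobiotic metabolism 12 of 28 fell, a share near the 39.6% of all genes tested, and 1 rose. Gstm1, a glutathione transferase with close copies, had 188, 252 and 186 FPKM in MMS D3 and 546, 473 and 279 FPKM in Control (-1.01 ± 0.23). The one that rose was Retsat, a retinol saturase of fat cells.

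**Figure D3:**
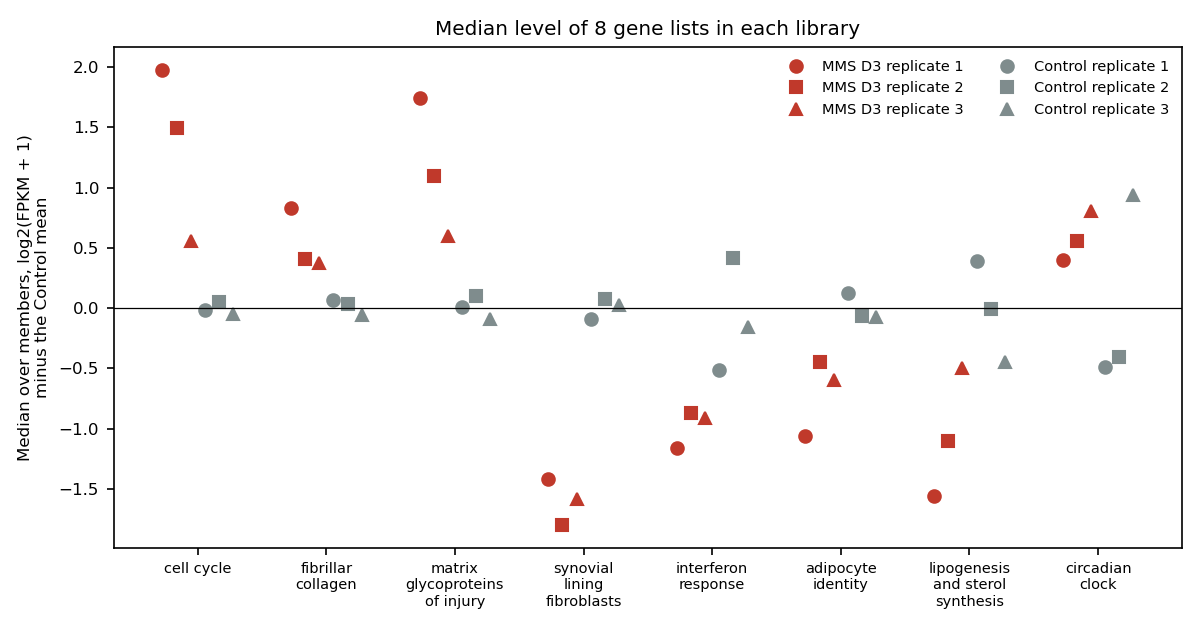
Median over the members of 8 gene lists of log2(FPKM + 1) minus the Control mean of each gene (vertical axis), in each MMS D3 library (red) and each Control library (grey), with the replicate number shown by the symbol. The cell cycle medians are 1.98, 1.49 and 0.56 in MMS D3 replicates 1, 2 and 3, the lining medians are -1.42, -1.80 and -1.59 in the same libraries, and in the circadian clock list Control replicate 3 stands at 0.94 while Control replicates 1 and 2 stand at -0.49 and -0.41.

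Smaller lists gave single genes, and over all genes tested 16.3% rose and 39.6% fell. Hif1a, the hypoxia-inducible transcription factor subunit, had 52.7, 37.7 and 39.1 FPKM in MMS D3 and 19.1, 19.97 and 21.9 FPKM in Control (1.04 ± 0.15). Of 8 glycolysis and hypoxia genes 2 fell, or none without Control replicate 1, without MMS D3 replicate 1 or in the fit of the 2 groups alone. Hmox1, the stress-induced haem oxygenase 1, had 249, 74.8 and 93.2 FPKM in MMS D3 and 28.7, 31.6 and 24.7 FPKM in Control (2.06 ± 0.38) and was the only riser of 4 immediate early and stress genes. Hif1a and Hmox1 are clear of Control in every MMS D3 library. Of 3 secretory pathway genes 2 rose, with Kdelr3, a receptor that returns proteins to the endoplasmic reticulum, at 60.4, 45.2 and 37.2 FPKM in MMS D3 and 24.7, 28.2 and 20.96 FPKM in Control (0.91 ± 0.23). Of 13 cytoskeleton and adhesion genes 4 rose, among them Cdh11, cadherin 11 of synovial fibroblasts, with 8.27, 7.56 and 9.81 FPKM in MMS D3 and 2.32, 2.28 and 5.01 FPKM in Control (1.24 ± 0.24), and 8 rose without MMS D3 replicate 3 and 7 with the replicate block. Of 11 endothelial and vessel genes 5 fell, a share near that of all genes tested, including Kdr, the main VEGF receptor, with 12.6, 14.03 and 15.7 FPKM in MMS D3 and 22.2, 23.4 and 26.0 FPKM in Control (-0.72 ± 0.15), and 3 fell without Control replicate 3 or without MMS D3 replicate 1. Of 6 histone genes 2 rose and 3 fell, with 1 riser without Control replicate 1 or 3 or MMS D3 replicate 1 or 2. Of 4 skeletal muscle genes 1 fell, and none of 5 erythroid or 5 nerve and Schwann cell genes passed. The fall of Myl1 in the muscle list (-1.41) ended without Control replicate 2 (adjusted p = 0.129 by limma) and without MMS D3 replicate 1 (0.0625).

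The Control libraries differed in clock genes. Dbp, a clock output transcription factor, had 83.7, 112 and 97.7 FPKM in MMS D3 and 18.4, 15.6 and 127 FPKM in Control. Per3, a period protein gene, had 13.6, 18.99 and 19.8 FPKM in MMS D3 and 6.06, 6.7 and 20.3 FPKM in Control. Control replicate 3 was level with or above the MMS D3 libraries in both, and Control replicates 1 and 2 were below them. Per1 alone of 10 members was called (1.26, adjusted p = 0.0232 by limma), which ended without Control replicate 1 (0.122), Control replicate 2 (0.0786) or MMS D3 replicate 3 (0.0569). Without Control replicate 3, 3 members rose, and without the 5 libraries that stand apart 8 rose.

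What came next was read from MMS D7 against MMS D3, a comparison that uses the same MMS D3 libraries. Of the 192 genes that rose in MMS D3, 54 were higher in MMS D7 than in MMS D3, 13 were lower and 125 did not pass. Of the 467 that fell, 77 were lower in MMS D7, 13 were higher and 377 did not pass. Of the 519 others, 75 were higher and 126 lower in MMS D7. After centring, 190 of all genes were higher and 112 lower, against 142 and 216. The counts depended on single libraries: of all 1178 genes, 597 were called without MMS D3 replicate 1 but 172 without MMS D3 replicate 2, 147 without MMS D3 replicate 3 and 178 without MMS D7 replicate 3, against 358 with all libraries.

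Lining markers and other genes that fell in MMS D3 included some that were higher again in MMS D7. Clic5 had 55.8, 63.01 and 34.2 FPKM in MMS D7, against 22.7, 20.5 and 18.9 FPKM in MMS D3 (1.22 ± 0.20), still under every Control library. Hbegf had 92.4, 91.4 and 112 FPKM in MMS D7, against 59.9, 42.4 and 40.8 FPKM in MMS D3 (1.05 ± 0.16). Pamr1, a secreted protease-like protein of fibroblasts and muscle, had 22.3, 21.4 and 22.9 FPKM in MMS D7, against 7.46, 10.3 and 6.82 FPKM in MMS D3 (1.35 ± 0.15), and averaged 23.7 ± 2.02 FPKM in Control, 8.19 ± 1.84 in MMS D3, 22.2 ± 0.738 in MMS D7 and 50.3 ± 2.61 in MMS D14 (SD, n = 3 each). Mamdc2, a secreted matrix protein, ran the same way, at 11.8 ± 1.92 FPKM in Control, 3.59 ± 1.18 in MMS D3, 10.6 ± 0.321 in MMS D7 and 25.2 ± 1.5 in MMS D14. Pamr1 and Mamdc2 overlapped their Control values in MMS D7 and were above them in every MMS D14 library, whereas Clic5 and Hbegf remained below Control in both later groups.

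The opposite order, higher in MMS D3 than in Control and lower in MMS D7 than in MMS D3, held for 13 genes. Retsat had 44.5, 50.6 and 76.7 FPKM in MMS D3 and 34.8, 29.9 and 30.7 FPKM in Control (0.79 ± 0.20), and 21.02, 22.97 and 25.1 FPKM in MMS D7 (-1.24 ± 0.20 against MMS D3). Mc2r, the ACTH receptor, which mouse fat cells also express, had 8.76, 8.93 and 12.4 FPKM in MMS D3 and 4.45, 5.62 and 7.06 FPKM in Control (0.72 ± 0.16), and 4.73, 4.93 and 5.34 FPKM in MMS D7 (-0.86 ± 0.16). Cxcl13, the B-cell chemokine, had 12.4, 15.5 and 22.3 FPKM in MMS D3, 13.5, 8.04 and 3.82 FPKM in Control and 4.44, 6.21 and 4.92 FPKM in MMS D7 (-1.49 against MMS D3), but its MMS D3 and Control values overlap. Its rise in MMS D3 (1.01) was 0.6 without Control replicate 3, and it ended in the fit of the 2 groups alone (adjusted p = 0.0559 by limma) and without the 5 libraries that stand apart (0.159). Prtn3 was at 20.8, 21.1 and 13.9 FPKM in MMS D7 (-0.8), a fall from MMS D3 that ended without MMS D3 replicate 2 (0.0846), without MMS D7 replicate 3 (0.0975) and in the fit of the 2 groups alone (0.0621).

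**Figure D4:**
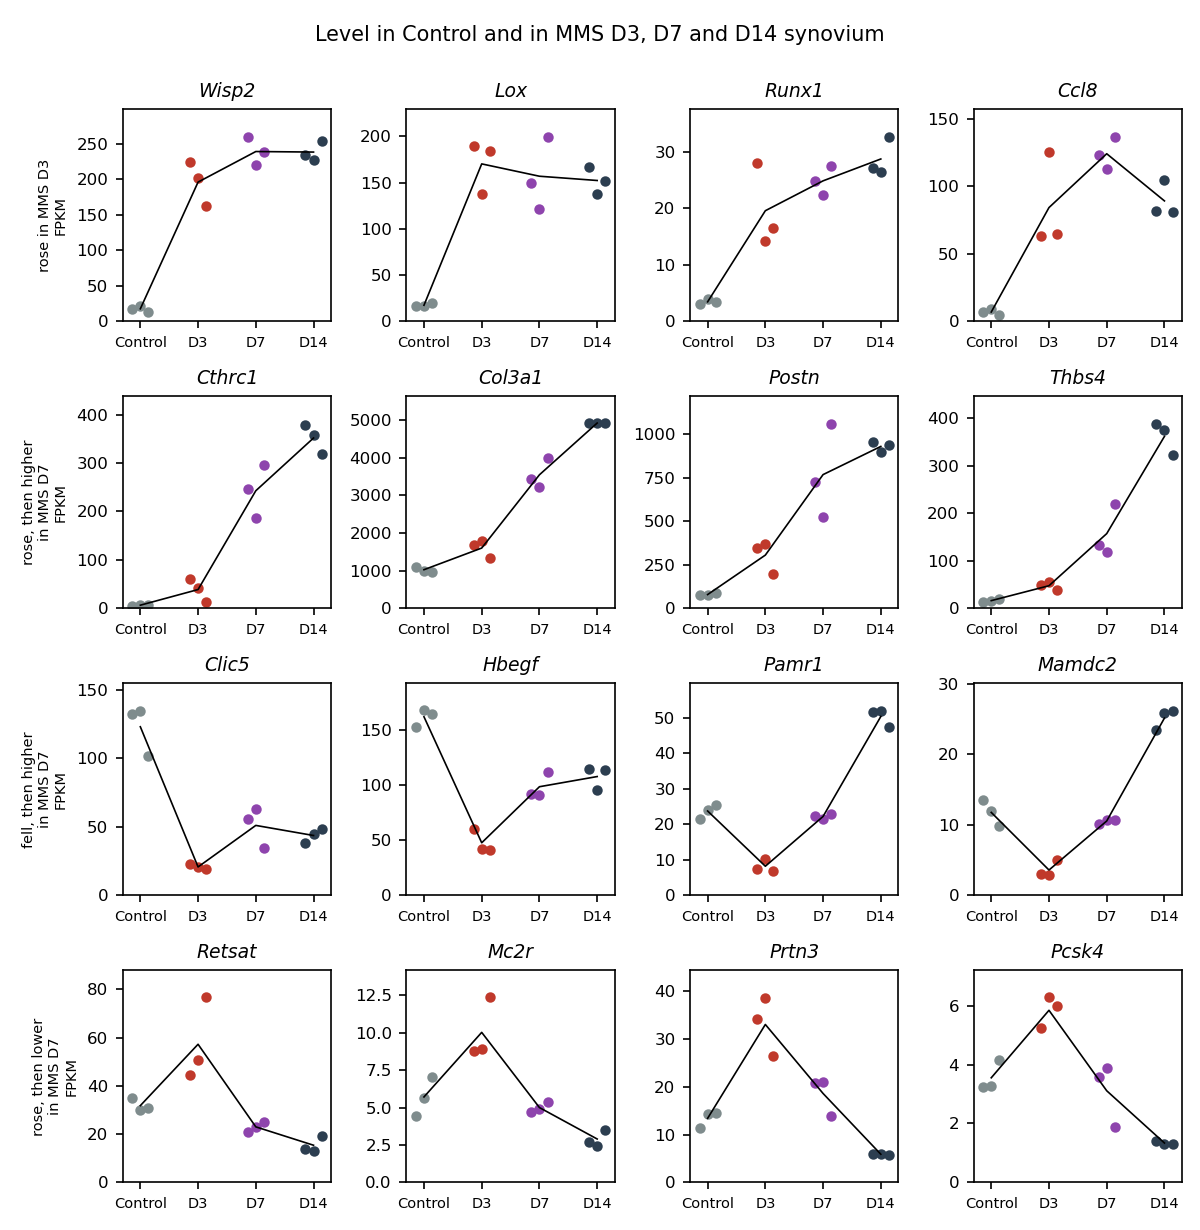
Level in FPKM (vertical axes, from 0) of 16 genes in Control, MMS D3, MMS D7 and MMS D14 synovium, with 1 point per library and a line through the group means. From top to bottom the rows show genes that rose in MMS D3, genes that rose and were higher again in MMS D7, genes that fell and were then higher in MMS D7, and genes that rose and were then lower in MMS D7. Lox averages 17.2 FPKM in Control, 170.2 in MMS D3 and 157 in MMS D7, and Pamr1 averages 23.7 FPKM in Control and 8.19 in MMS D3.

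A set of genes was near Control in MMS D3 and higher in MMS D7. Crabp2, a carrier of retinoic acid to the nucleus, had 30.01, 24.2 and 29.8 FPKM in MMS D7, against 6.16, 2.62 and 6.21 FPKM in MMS D3 (2.34 ± 0.32), and 7.18, 3.88 and 4.72 FPKM in Control. Antxr1, a collagen-binding receptor of fibroblasts, had 64.3, 52.5 and 61.7 FPKM in MMS D7, against 19.1, 27.2 and 14.6 FPKM in MMS D3 (1.54 ± 0.20), and 24.7, 24.5 and 20.04 FPKM in Control. MMS D3 and Control overlap in both genes, and MMS D7 is clear of them. Col6a2 (1.5), Thbs3 (1.44), Aspn (1.43) and Angptl1 (1.63) were likewise not called in MMS D3 and higher in MMS D7. On the lower side, Klf15, a glucocorticoid-induced regulator of amino acid and fat metabolism, had 11.4, 12.8 and 6.29 FPKM in MMS D7, against 17.6, 28.03 and 29.2 FPKM in MMS D3 (-1.24 ± 0.24), and 27.04, 23.5 and 28.3 FPKM in Control. Prodh, proline dehydrogenase, had 9.25, 9.68 and 8.0 FPKM in MMS D7, against 15.4, 23.2 and 23.5 FPKM in MMS D3 (-1.1 ± 0.23), and 22.1, 20.4 and 26.3 FPKM in Control. Of the 39 adipocyte list genes 19 were lower in MMS D7 than in MMS D3, against 216 of all 1178 genes (18.3%). The count of 19 became 9 without MMS D3 replicate 2 or without MMS D7 replicate 3, and 12 without MMS D3 replicate 3. It was 6 in the fit of the 2 groups alone and 12 without the 5 libraries that stand apart. Lipe, which had not passed in MMS D3, was at 319, 332 and 191 FPKM in MMS D7 (-0.83, which ended in the fit of the 2 groups alone, adjusted p = 0.0754 by limma).

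The MMS D3 libraries differed among themselves. The ratio of the highest to the lowest MMS D3 library had a median of 1.53 over all genes, against 1.30 among the Control libraries. Among the 192 genes that rose, MMS D3 replicate 1 was highest in 136 and replicate 3 lowest in 135, and the median distance from the Control mean was 1.38, 1.07 and 0.67 log2 units in replicates 1, 2 and 3. Among the 467 that fell, replicate 1 was lowest in 342. Called genes with the widest ratio included Spp1, osteopontin, with 167, 42.7 and 27.7 FPKM in MMS D3 and 2.87, 3.06 and 2.62 FPKM in Control, and Gm21320, a predicted gene, with 27.4, 41.1 and 259.7 FPKM in MMS D3 and 519, 433 and 546 FPKM in Control. Cdca3, a mitotic regulator, had 21.3, 14.3 and 3.86 FPKM in MMS D3 and 1.88, 2.58 and 1.92 FPKM in Control. In these 3 genes the groups do not overlap, but MMS D3 replicate 3 was closest to Control. Gfra1, Timd4 and Clic5, by contrast, varied little between the MMS D3 libraries.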

How the data were processed

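RNA of mouse synovium was sequenced, and the authors deposited FPKM values of selected genes, made with HISAT2 on mm10 per the submitters' processing notes. How genes were selected and the read depth are not given in the sources used here, so no counting error can be given. Values were tested as log2(FPKM + 1) with limma 3.58.1 (R 4.3.3; empirical Bayes with a variance trend, Benjamini-Hochberg over 1178 genes, adjusted p under 0.05), over all 18 synovium samples in 6 groups. A filter of FPKM 1 in 3 samples was set. The procedure was checked on simulated data. The labels state no pairing, and the main fit uses none. Deviations of same-numbered Control and MMS D3 samples correlated at 0.128, 0.130 and 0.404, each above a cut-off of 0.1. Control replicate 2 with MMS D3 replicate 1 (0.326) and Control replicate 1 with MMS D3 replicate 2 (0.112) exceeded it too. Replicate 3 of both groups, at 0.404, belongs to the libraries with low Gm2023. Whether the numbers pair the samples was thus not established. The fit with the replicate block, over all 6 groups, is an alternative.

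The gene lists, members and tests were chosen with earlier results of these data known. Some genes belong to several lists, so counts of different lists are not independent. Genes were named by a rule: the 12 firmest rises and falls, up to 6 called members of each list, genes that turned in MMS D7, genes first called there, the most abundant and the most variable. Acaca, Adrb3, Cthrc1, Elovl6, Fasn, Gbp3, Gstm1, Hmgb2, Irgm2, Lep, Mcm2, Mfap4, Ncapd2, Pcolce2, Plin1 and Tnc were chosen after their values were seen, as were the cell cycle genes listed without values and the motifs. Results of 2 genes are not reported here. Promoters are RefSeq (GRCm38.p6), and gene positions and exons GENCODE vM21.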

Additional observations from a re-analysis of the deposited data

How the results depend on the processing

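For MMS D3 against Control 659 genes were called. The count was 580 after centring, 650 with a pseudocount of 0.1, 476 in the fit of the 2 groups alone and 484 to 679 with 1 library left out. With the replicate block, which groups same-numbered samples without a stated pairing, it was 732. Asking for an absolute log2 change of at least 1 left 203. A term for the 5 libraries with low Gm2023 gave 749 and leaving them out gave 787, both chosen after seeing the data. For this comparison 112 of the named genes were followed through the alternatives. Of these, 8 lost their call under at least 1 alternative, and Ctgf gained one. Other named genes are outside this count, among them Dbp, Per3 and Scd1, which did not pass, and Kif23, whose call ended as given above.

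MMS D7 against MMS D3 was less stable. Its 358 calls became 116 in the fit of the 2 groups alone, 147 to 597 with 1 library left out, 186 without the 5 libraries, 518 with a term for them and 69 at an absolute log2 change of at least 1. The replicate block gave 483, but same-numbered MMS D3 and MMS D7 samples did not all deviate together (correlations -0.07, 0.43 and 0.08), so they share only a number. The log2 change of Lox from MMS D3 to MMS D7 was -0.13 and turned positive after centring (0.0232), and it ran from -0.320 to 0.0372 with 1 library left out, while that of Loxl3 turned to -0.0268 without the 5 libraries. The cause was not tested. Depth is unknown, and 3 samples a group limit every comparison.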
